A study of Mus musculus with 6 samples.

Results

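Glutathione S-transferases were examined in mouse megakaryocytes with Gata-1 knocked down and in wild-type cells. The family was represented by 10 genes with 16 probe sets, of 18193 genes and 45101 probe sets in the table, namely Gsta2, Gsta4, Gstt1, Gstm1, Gstm5, Gsto1, Gstk1, Gstp1, Mgst1 and Mgst3. All probe sets whose platform annotation named only one of these genes were taken. The genes were chosen with the difference between the groups in view, so their differences are described and carry no test. Progenitors came from fetal livers at embryonic day 13.5 and were grown into megakaryocytes, the cells that shed platelets, and these were collected on a gradient of bovine serum albumin. The groups were 3 arrays of Gata-1 knock down (knockdown A, B and C) and 3 of Gata-1 wild type (wild type A, B and C), each of total RNA. The labels do not say how the knock down was made, which strain was used, or whether each sample was a culture or animal of its own. The p-values therefore reflect the spread among these arrays alone, and part of that spread may be technical.

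Glutathione S-transferases join the tripeptide glutathione to electrophilic compounds, and some also reduce lipid peroxides. Soluble enzymes fall into classes such as alpha, mu, pi, theta and omega, the kappa class resides in mitochondria and peroxisomes, and a separate membrane family includes the microsomal transferases and the enzymes that make cysteinyl leukotrienes and prostaglandin E. Several of these genes are known targets of NRF2, a stress-responsive transcription factor that binds antioxidant response elements. GATA1, the factor that was knocked down, binds GATA motifs and is required for megakaryocytes and red cells to mature.

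On the arrays Gata1 itself read 153.5, 143.3 and 194.7 in knockdown and 8723.7, 8246.5 and 8495.6 in wild type. Median signals of the arrays lay between 101.6 and 137.8 and were highest on knockdown B. The highest of 27 bacterial control probe sets, used here as the level of background, lay between 60.7 and 82.2 on 5 arrays and at 132 on knockdown B. Of 11 measured megakaryocyte markers none was within background in either group, and their summed signal was 155500 to 166300 in wild type and 104900 to 129500 in knockdown. The number of arrays limits the precision.

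Promoter windows are shown first for the members with the largest differences in each direction, Gsta2, Gstt1, Mgst1 and Gstm5. They are RefSeq sequences of the GRCm38.p6 assembly from 250 bases before to 50 bases after an annotated start, on the strand of the gene, and 9 of the 10 members had at least 1 window. Capitals mark matches, on either strand, to a GATA motif (GATA preceded by A or T and followed by A or G) or to the core of the antioxidant response element (TGACNNNGC). The 2 motifs do not overlap in these windows. The lines give Gsta2 (chr9:78347096-78347395, minus strand), Gstt1 (chr10:75797682-75797981, minus strand), the first of 2 annotated starts of Mgst1 (chr6:138140277-138140576, plus strand) and Gstm5 (chr3:107895604-107895903, plus strand).
Gsta2: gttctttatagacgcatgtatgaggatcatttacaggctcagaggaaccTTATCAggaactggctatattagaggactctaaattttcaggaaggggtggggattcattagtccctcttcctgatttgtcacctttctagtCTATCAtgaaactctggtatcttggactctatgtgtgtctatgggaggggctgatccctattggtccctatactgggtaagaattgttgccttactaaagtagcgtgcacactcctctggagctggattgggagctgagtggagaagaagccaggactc
Gstt1: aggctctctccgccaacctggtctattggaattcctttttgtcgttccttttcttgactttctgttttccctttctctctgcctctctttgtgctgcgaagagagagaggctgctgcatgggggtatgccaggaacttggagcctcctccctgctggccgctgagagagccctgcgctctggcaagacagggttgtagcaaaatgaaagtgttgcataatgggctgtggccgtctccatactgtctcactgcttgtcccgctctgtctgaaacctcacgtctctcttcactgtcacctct
Mgst1: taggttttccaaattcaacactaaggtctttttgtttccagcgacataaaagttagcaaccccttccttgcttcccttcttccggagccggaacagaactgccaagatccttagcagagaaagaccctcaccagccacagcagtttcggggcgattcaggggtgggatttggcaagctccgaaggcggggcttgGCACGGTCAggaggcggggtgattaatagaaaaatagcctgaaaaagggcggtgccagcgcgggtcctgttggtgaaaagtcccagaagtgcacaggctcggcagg
Gstm5: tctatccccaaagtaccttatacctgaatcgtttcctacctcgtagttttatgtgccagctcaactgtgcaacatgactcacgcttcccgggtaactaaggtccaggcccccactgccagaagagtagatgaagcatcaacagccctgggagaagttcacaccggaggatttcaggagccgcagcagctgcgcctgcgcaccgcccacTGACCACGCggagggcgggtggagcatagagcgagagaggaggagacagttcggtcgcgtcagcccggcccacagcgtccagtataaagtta
The Gsta2 window held 2 GATA motifs, both on the opposite strand, which began 201 and 109 bases before the start, and no match to the antioxidant response core. The Gstt1 window held neither motif. The windows of Mgst1 and Gstm5 each held 1 match to the antioxidant response core and no GATA motif. Over all members, 3 of 11 windows held a GATA motif (Gsta2, Gstk1 and the second start of Mgst1) and 2 held the antioxidant response core. Of all 32851 windows of this length, 29.8% held a GATA motif and 12.4% the antioxidant response core. A match describes letters in these windows and not a bound site. Only these letter patterns were searched, so a window without a match may hold another form of either motif.

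Among the members, 4 genes had all knockdown arrays below all wild-type arrays (Gsta2, Gstt1, Gstm1 and Mgst1) and 3 had them all above (Gstm5, Gstp1 and Mgst3), while the groups overlapped for Gsta4, Gsto1 and Gstk1. Of all 14230 genes tested, 22.8% were lower and 24.9% higher in knockdown without overlap, and since the members were chosen from this comparison nothing is read from their share. These orders refer to the normalized values (log2 of signal + 32, quantile normalized), on which all log2 fold changes below are given as knockdown minus wild type, with the standard error (SE) of the fit. Levels are signals as deposited. Of the 10 genes, 9 were above background in at least 1 group, with a median log2 fold change of -0.16, against 0.03 over all genes tested. Those 9 genes lay on both sides of 0, up to 0.78 for Gstm5, and the value of Gsta2 enters the median as one measured against background.

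**Figure D1:**
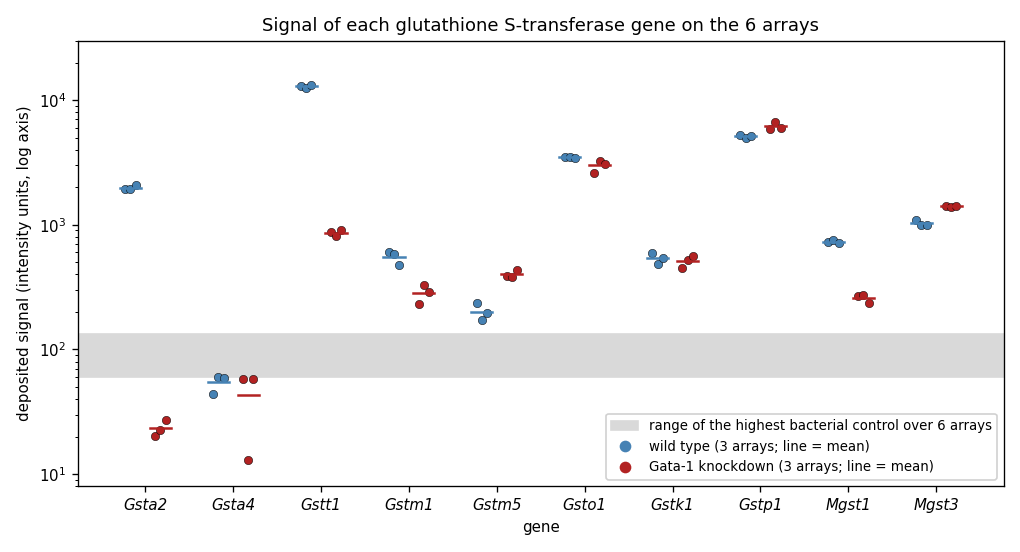
Deposited signal (intensity units, log axis) of each member gene, by its brightest probe set, on the 3 wild-type (blue) and 3 knockdown (red) arrays, with lines at group means and a grey band over the range of the highest bacterial control (60.7 to 132). Gsta2 and Gstt1 show the widest gaps between the groups, and Gsta4 lies at or below the control of its array on all 6 arrays.

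Of the alpha class, Gsta2, which conjugates electrophiles and reduces lipid hydroperoxides, read 1941.9, 1921.0 and 2096.3 in wild type A, B and C. In knockdown A, B and C it read 20.1, 22.6 and 27.1, at or below the bacterial controls on all 3 arrays. The wild-type mean was 1986 ± 95.8 and the knockdown mean 23.3 ± 3.55 (SD, n = 3 each). The gene was bright on every wild-type array and not above background on any knockdown array, so its fold change is a bound, at least 22.3-fold lower in knockdown, taken against the bacterial control with the added 32 removed. A further probe set, annotated to Gsta2, Gsta1 and Gm3776 together and so outside the rule, read 1547.6, 1513.8 and 1544.0 in wild type and 11.6, 31.4 and 25.1 in knockdown. These alpha-class transcripts cannot be told apart by that probe set, and Gsta1 had no probe set of its own named here. Gsta4, which conjugates aldehydes of lipid peroxidation, read 44.3, 60.7 and 59.2 in wild type and 58.2, 13.0 and 58.2 in knockdown. It was at or below the control on all 6 arrays, so it gives no level and no fold change.

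Gstt1, of the theta class, which acts on small halogenated compounds, was far lower in knockdown but stayed above background there. It read 12961.0, 12597.7 and 13233.5 in wild type A, B and C and 877.7, 808.5 and 905.4 in knockdown A, B and C. The 2 groups were each tight and far apart, at 12930 ± 319 and 863.9 ± 49.9 (SD, n = 3 each). Knockdown was 15.0-fold lower than wild type, a log2 fold change of -3.91 ± 0.06 (SE).

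The mu-class genes Gstm1 and Gstm5, whose products detoxify a broad range of electrophiles, lay on opposite sides of 0. Gstm1 by its brightest probe set read 603.5, 579.9 and 474.0 in wild type and 233.5, 327.3 and 288.3 in knockdown, a log2 fold change of -0.99 ± 0.14 (SE). A second probe set of Gstm1 read 434.5, 419.2 and 340.1 against 224.7, 217.2 and 287.5, at -0.78 ± 0.16 (SE). Both were lower in every knockdown array, and wild type C was the lowest wild-type array on each. The other 2 probe sets of Gstm1 were at or below the controls on all 6 arrays and give no fold change. The brightest probe set carries the suffix that Affymetrix gives to probes matching other transcripts as well, so mu-class relatives may add to its signal. Gstm5 read 235.4, 171.1 and 197.1 in wild type and 392.0, 383.4 and 436.1 in knockdown, a log2 fold change of 0.78 ± 0.15 (SE). All knockdown arrays lay above all wild-type arrays for Gstm5, with means of 403.8 ± 28.3 and 201.2 ± 32.4 (SD, n = 3 each).

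Gstp1, of the pi class, conjugates electrophiles and is known to bind the stress kinase JNK. It read 5233.7, 4962.4 and 5128.8 in wild type and 5881.3, 6722.9 and 5937.7 in knockdown, a log2 fold change of 0.36 ± 0.06 (SE). The groups did not overlap, but the size depended on the scaling, at 0.27 for deposited values and 0.08 under median centring of the arrays. Gsto1, of the omega class, which reduces dehydroascorbate and mixed disulfides, read 3510.0, 3519.1 and 3415.8 in wild type and 2622.8, 3266.2 and 3089.9 in knockdown. The deposited signals did not overlap, the normalized values did, and the log2 fold change was -0.16 ± 0.09 (SE). Under median centring it was -0.42 and the groups did not overlap. Its second probe set had -0.31 ± 0.14 (SE) with overlapping groups, and knockdown A read the highest knockdown signal there, 2857.8, but the lowest on the first probe set. The second probe set of Gsto1 carries the same suffix as the brightest of Gstm1, so other transcripts may add to its signal. Gstk1, of the kappa class, read 590.9, 488.1 and 540.9 in wild type and 451.3, 517.2 and 565.9 in knockdown. Its groups overlapped, with a log2 fold change of -0.15 ± 0.12 (SE).

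The membrane transferases also differed from each other. Mgst1, found in the endoplasmic reticulum and the outer mitochondrial membrane, read 722.7, 751.7 and 711.2 in wild type and 266.1, 272.8 and 235.2 in knockdown. Its means of 728.5 ± 20.9 and 258 ± 20.1 (SD, n = 3 each) gave a log2 fold change of -1.49 ± 0.11 (SE), or 2.81-fold lower in knockdown. A second probe set of Mgst1 was at or below the controls on all 6 arrays and gives no fold change. Mgst3, which has transferase and peroxidase activity, read 1084.3, 990.9 and 1001.2 in wild type and 1421.1, 1380.9 and 1406.0 in knockdown. The knockdown arrays were all higher, by a log2 fold change of 0.43 ± 0.07 (SE), or 0.25 under median centring, where the groups overlapped. A second, dim probe set of Mgst3, at or below the controls on all 3 knockdown arrays, did not separate the groups.

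**Figure D2:**
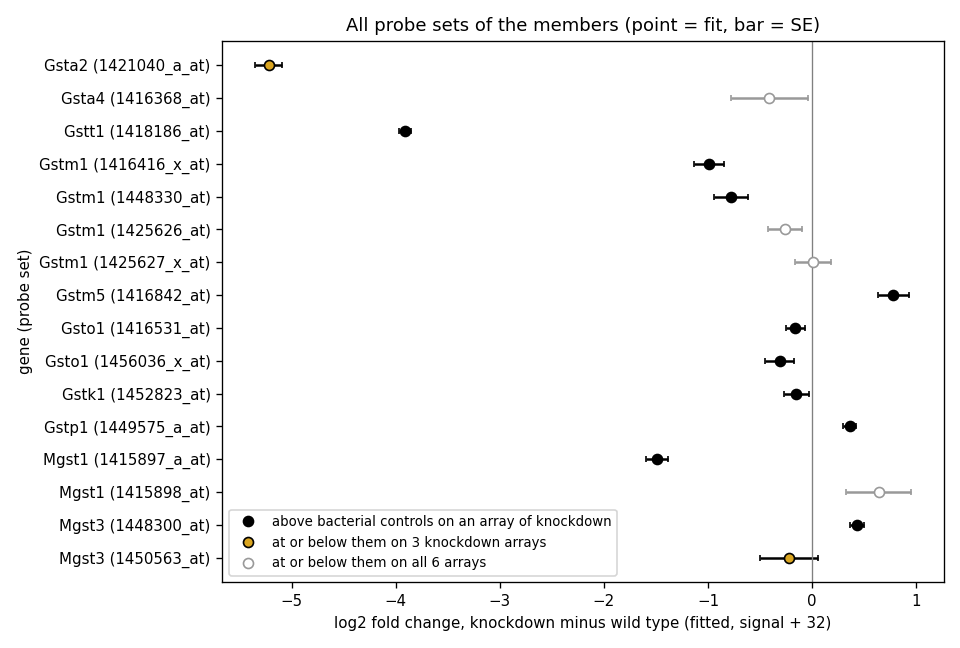
Fitted log2 fold change (knockdown minus wild type, signal + 32) of all 16 member probe sets, with bars of 1 SE. Filled points were above the bacterial controls on at least 1 knockdown array, yellow points were not, and open points were at or below the controls on all 6 arrays. The probe sets of Gsta2 and Gstt1 lie below -3.

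Transferase genes beside Gstt1, Gstm1 and Gstm5 in the genome had smaller differences that did not pass the test (limma, adjusted p of 0.05 over all probe sets). Gene order was taken from RefSeq GRCm38.p6, for names only. Next to Gstt1 lie Gstt3, with a log2 fold change of -0.47 ± 0.19 (SE; limma adjusted p 0.0966), and Gstt4, which was within background, and beyond it Gstt2, at -0.06 ± 0.10 (limma adjusted p 0.712). Gstt2 read 873.9 in wild type and 860.9 in knockdown on average, whereas the Gstt1 means differed 15.0-fold. Next to Gstm1 lie Gstm2, at -0.20 ± 0.21, and Gstm4, at 0.05 ± 0.23, and next to Gstm5 lies Gstm7, at 0.16 ± 0.29, with limma adjusted p of 0.538, 0.897 and 0.744. Gstm3, 2 genes from Gstm1, had -0.43 ± 0.17 (limma adjusted p 0.0965). These signals were mostly dim, and the differences between neighbours were themselves not tested. Gsto2, next to Gsto1, was within background in both groups.

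Transferase and related genes left once the 10 members were taken out, Gstcd and Alox5ap among them, changed in both directions. Of 21 listed genes, 18 had a probe set of their own, 13 were bright enough to be tested, 2 rose, 2 fell and 9 did not pass limma with Benjamini-Hochberg adjustment over all probe sets at an adjusted p of 0.05. Among all genes tested, 18.3% rose, 17.1% fell and 35.5% changed in either direction, against 15.4% rising and 15.4% falling in this list. This and the later gene lists were chosen with earlier results of these data known, so their shares are only described. Of all genes called, 51.7% were higher, a share of 28.6% under median centring and 56.4% for deposited values, and the median log2 fold change of all genes was 0.033, -0.079 and 0.116 under these 3 scalings. Gstcd, a protein with a transferase-like C-terminal domain, averaged 420.6 ± 38.5 in wild type and rose to 863 ± 92.9 in knockdown (SD, n = 3), by 0.92 ± 0.12 (SE) on the log2 scale (limma adjusted p 0.000204). Hpgds, the sigma-class enzyme that makes prostaglandin D, rose by 0.72 ± 0.13 (limma adjusted p 0.00224). Alox5ap, a membrane-family protein that presents arachidonic acid to the lipoxygenase of leukotriene synthesis, fell by 0.49 on the log2 scale, with readings of 13624.5, 13134.0 and 14034.5 in wild type and 9223.6, 10985.3 and 9745.9 in knockdown (limma adjusted p 4.25e-05). Ltc4s, which makes the first cysteinyl leukotriene, was at or below the controls on 2 of 3 knockdown arrays and fell by 1.33 on the log2 scale (limma adjusted p 0.00733). As deposited, Ltc4s overlapped, since wild type B read 164.0 and knockdown B 174.1.

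Genes that make, break down and move glutathione also changed in both directions, and both subunits of the rate-limiting enzyme fell. Of 24 tested of 30 listed, 4 rose, 7 fell and 13 did not pass, with a median log2 fold change of -0.15. The shares were 16.7% rising and 29.2% falling, against 18.3% and 17.1% of all genes tested. Gclc, the catalytic subunit of glutamate-cysteine ligase, read 2054 ± 59.6 in wild type and 1275 ± 44.0 in knockdown (SD, n = 3; log2 fold change -0.66 ± 0.06 SE, limma adjusted p 3.32e-05). Its modifier subunit Gclm, named after its value was seen, went from 11840 ± 389 to 8408 ± 426 (-0.47 ± 0.04, limma adjusted p 1.87e-05). Anpep, an aminopeptidase, fell by 1.18 on the log2 scale. The glutathione-degrading enzyme Chac2 fell by 0.71 and the dipeptidase Cndp2 by 0.51, with limma adjusted p for these of 0.000411, 0.00284 and 0.00126. Cth, which makes cysteine from cystathionine, rose from 98.6 ± 23.5 to 511 ± 15.8 (1.93 ± 0.16, limma adjusted p 1.01e-05). Chac1, the inducible relative of Chac2, rose by 1.12 ± 0.11, and Slc25a39, a carrier of glutathione into mitochondria, by 0.59 ± 0.05 (limma adjusted p 2.59e-05 and 8.08e-06). Lap3, a leucine aminopeptidase, rose by 0.30 ± 0.08 (limma adjusted p 0.0193), a call lost under median centring and without knockdown C, wild type A or wild type C.

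Peroxidases, redoxins and other enzymes that use glutathione or thioredoxin, listed together with superoxide dismutases and catalase, fell more often than they rose. Of 25 tested of 32 listed, 13 fell (52.0%), 4 rose (16.0%) and 8 did not pass, with a median log2 fold change of -0.17. The list was chosen with earlier results of these data known, so these shares are only described. Over all genes tested, 17.1% fell and 18.3% rose. Sod1 and Cat were among the falls, at -0.17 ± 0.04 and -0.21 ± 0.06 (SE; limma adjusted p 0.0142 and 0.0203), and Sod2 among the rises. The Sod1 call was lost for deposited values and without knockdown C, wild type A or wild type C. It was also lost with the mean of its probe sets, where Sod1 had 0.08. The Cat call was lost without knockdown C, wild type B or wild type C. Most of the falls were small, and the count of 13 dropped to 7 without knockdown C or without wild type C, and to 8 without wild type A or without wild type B. Glrx, the cytosolic glutaredoxin, read 1485.0, 1439.4 and 1413.2 in wild type and 553.3, 573.5 and 568.9 in knockdown (log2 fold change -1.34 ± 0.08 SE, limma adjusted p 9.31e-07). The glutathione peroxidase Gpx1 read 6860.6, 6282.1 and 7111.8 in wild type and 3694.4, 3641.8 and 3347.3 in knockdown (-0.83 ± 0.06, limma adjusted p 4.89e-06). Neither gene overlapped between the groups. The sulfiredoxin Srxn1 fell by 0.61 on the log2 scale (limma adjusted p 1.08e-05). Gpx2, at or below the controls on 2 of 3 knockdown arrays, fell by 1.23 on the log2 scale (limma adjusted p 0.033), a call lost with the values as deposited, with no filter and without any 1 of 5 arrays, all but knockdown B. Glrx3, a cytosolic iron-sulfur glutaredoxin, rose by 0.92 ± 0.20 (limma adjusted p 0.00495). Adh5, which oxidizes the formaldehyde adduct of glutathione, thioredoxin reductase Txnrd1 and the mitochondrial superoxide dismutase Sod2 rose by 0.42 ± 0.05, 0.37 ± 0.07 and 0.34 ± 0.05 (limma adjusted p 0.000179, 0.00264 and 0.000876), and all 3 calls were lost under median centring.

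NRF2 regulators and other NRF2 targets fell more often than they rose. Of 23 tested of 25 listed, 10 fell (43.5%), 1 rose (4.35%) and 12 did not pass, with a median log2 fold change of -0.10. The shares over all genes tested were 17.1% and 18.3%. This list too was chosen with earlier results of these data known, and brightness was not matched, so the shares are only described. Me1, malic enzyme, which makes NADPH, read 1653.4, 1707.0 and 1580.2 in wild type and 571.0, 501.4 and 494.1 in knockdown (-1.63 ± 0.09 SE, limma adjusted p 4.28e-07). Nqo1, a quinone reductase, read 1656.3, 1729.8 and 1581.8 in wild type and 933.6, 700.8 and 814.5 in knockdown (-1.01 ± 0.10, limma adjusted p 3.26e-05). The groups of both genes were well apart. The heme oxygenase Hmox1 and the biliverdin reductase Blvrb fell by 1.21 and 0.92 on the log2 scale (limma adjusted p 2.12e-05 and 1.7e-06). Nfe2l2, which encodes NRF2, named after its value was seen, had -0.18 ± 0.06 (limma adjusted p 0.0387), a call lost without any 1 array but knockdown A, and had 0.09 with the mean of its probe sets. The sole rise, Sqstm1, a selective autophagy receptor, was 0.21 ± 0.06 (limma adjusted p 0.0191), and it turned to -0.06 under median centring. Its call was also lost for deposited values, with the mean of its probe sets, and without knockdown C, wild type B or wild type C.

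**Figure D3:**
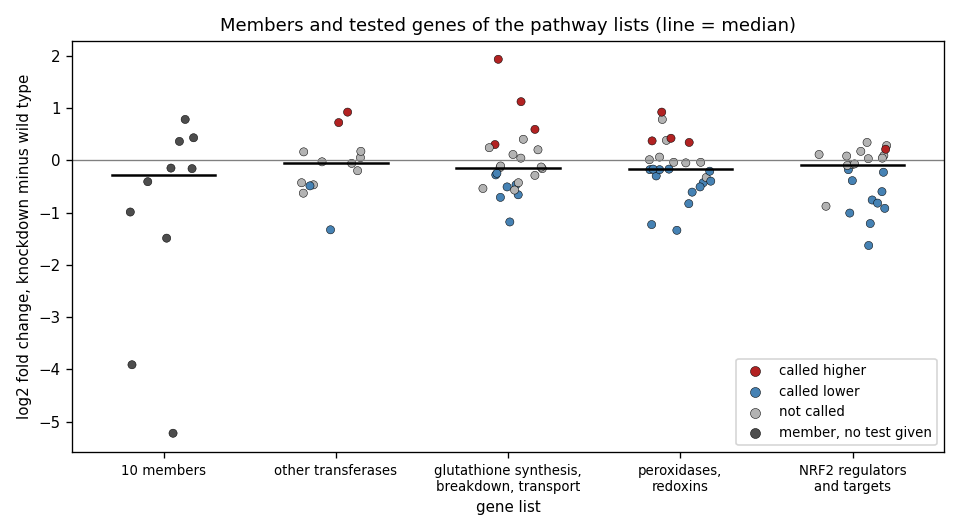
Fitted log2 fold change (knockdown minus wild type) of the 10 members (dark grey, no test given) and of the tested genes of 4 pathway lists, with red for genes called higher, blue for genes called lower, light grey for genes not called and a line at each median. The lowest member point is Gsta2, which was within background on all 3 knockdown arrays, so its place depends on the offset. The medians of the 4 lists lie between -0.17 and -0.06.

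The genes whose profile over the 6 arrays was nearest to that of Gsta2, by Euclidean distance between centred normalized log2 values, were Gata1 (distance 0.446), Sardh (1.01), Prrt4 (1.26), Reln (1.28) and Myl9 (1.31). With 2 groups, this distance mostly orders genes by the size of their difference. Sardh, the sarcosine dehydrogenase, read 1291.1, 1224.4 and 1285.5 in wild type and 29.8, 38.5 and 12.5 in knockdown, and like Gsta2 was within background on all 3 knockdown arrays. Myl9, a myosin light chain, was also within background in knockdown, whereas Gata1 and the secreted glycoprotein Reln stayed above it on all 3 arrays.

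**Figure D4:**
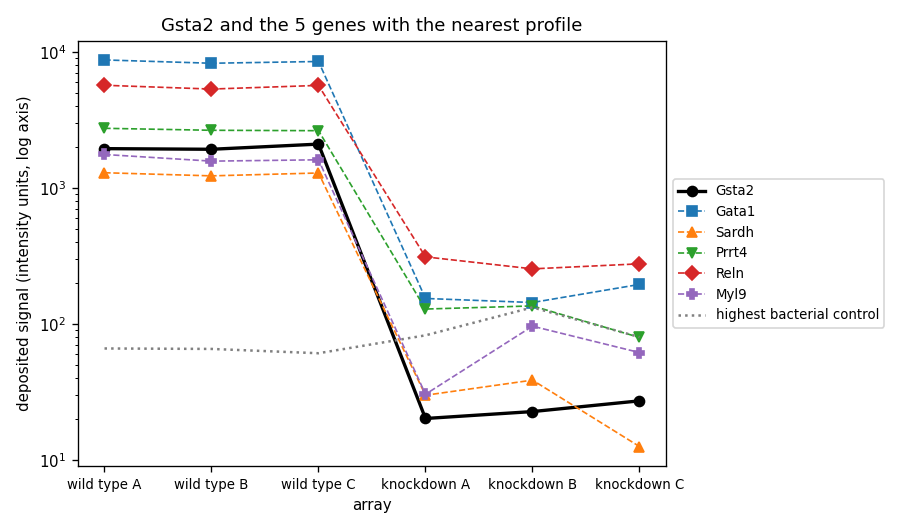
Deposited signal (intensity units, log axis) of Gsta2 and its 5 nearest genes on each array, with the highest bacterial control of each array as a dotted line. All 6 genes are high on the 3 wild-type arrays, and Gsta2, Sardh and Myl9 lie below the dotted line on the 3 knockdown arrays.

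Marker genes of macrophages, neutrophils and mast cells, which such cultures may contain, were mostly lower in knockdown together with Gsta2, Gstt1, Gstm1 and Mgst1. Of 11 tested megakaryocyte markers 9 fell and 0 rose, and smaller shares of the red cell and hepatocyte markers fell. Of the 3 brightest megakaryocyte markers in wild type, Itga2b and Pf4 did not pass, at -0.03 ± 0.06 and -0.06 ± 0.04 (SE; limma adjusted p 0.812 and 0.304). As deposited, Itga2b averaged 18480 in wild type and 22760 in knockdown, and Pf4 17120 and 19980, with overlapping groups. The other, Itgb3, fell by 0.44 on the log2 scale (limma adjusted p 1.05e-05). Over all genes tested, 17.1% fell and 18.3% rose. In such bulk samples fewer cells of a type and less RNA per cell cannot be told apart. Of 11 tested macrophage markers 10 fell and 0 rose, and the summed signal of all 12 measured was 20470 to 21080 in wild type and 7676 to 7698 in knockdown, with Marco within background in both groups and Csf1r at 6939 ± 115 and 2476 ± 82.9 (SD, n = 3). Of 9 neutrophil markers 8 fell and 0 rose, with sums of 11010 to 11390 and 2999 to 3101, none within background in either group, and S100a9 at 3659 ± 59.3 and 759.8 ± 137 (SD, n = 3). Of 10 mast cell markers 7 fell and 0 rose, with sums of 4432 to 5085 and 1317 to 1522, Cpa3 at 1967 ± 33.4 and 845.4 ± 61.6 (SD, n = 3), and 7 of the 10 were within background in knockdown, Hdc and Ms4a2 among them. Of 9 red cell markers 3 fell, 1 rose and 5 did not pass, with sums of 12100 to 12540 and 3536 to 3689. Most of that gap came from Hbb-y, which read 9748 and 1125 on average. Alas2 fell from 597.5 to 385.4 on average, and Slc4a1 rose from 495.4 to 672.2. Of 8 measured hepatocyte markers, 5 were tested, 2 fell and 0 rose, with sums of 1392 to 1615 and 675.6 to 910.4. Afp fell from 912.7 ± 31.2 to 369.8 ± 102 (-1.35 ± 0.18 SE, limma adjusted p 0.000234), and Rbp4 fell by 0.77 on the log2 scale (limma adjusted p 0.00956). Of the others, Apoa1 and Fgb were within background in both groups and Ttr and Ahsg in knockdown, and Alb read 108.7 in wild type and 99.2 in knockdown on average, near the controls. The part of these cells in the differences of the members was not tested.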

How the data were processed

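Each sample was measured on 1 Affymetrix array. The deposited values are intensity signals on a linear scale, as the values show, and the mean of each column with 2% trimmed at each end was 500, so the authors had applied a common scaling. The software is not given in the sources used here, nor is a genome build. Signals were taken as log2(signal + 32) and quantile normalized, since array medians spanned 0.346. The 64 control probe sets and those with a mean below the 30th percentile were left out, and 31526 were tested with limma 3.58.1 in R 4.3.3 (lmFit, eBayes with trend, two-sided, Benjamini-Hochberg). The offset understates changes of dim genes. All 10 members had a tested probe set, 13 of 16 passing. A gene was represented by its brightest probe set naming 1 gene, and symbols came from the platform annotation, updated through gene numbers with RefSeq GRCm38.p6. Of 176 other list entries 156 matched. The fit was also run on simulated data with independent noise and 200 changed probe sets, against 9577 called here. That run did not include normalization, so it says nothing on how the calls depend on scaling.

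The members and gene lists were chosen with earlier results of these data known. The rule named all members, Gata1, called or adjacent other transferases, up to 4 called genes in each direction of the other pathway lists, the 5 profiles nearest to Gsta2 and, of each marker list, up to 3 of the brightest, and Marco, Hdc, Ms4a2 and the hepatocyte markers other than Afp and Rbp4 were named after their values were seen. Within background means at or below the highest bacterial control on every array of a group. A gene so placed in 1 group has a bound as its fold. Alternatives were other offsets, scalings and filters, a floor at the controls, the replicate letter as a block, averaging a gene's probe sets, and leaving out each array.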

Additional observations from a re-analysis of the deposited data

How the results depend on the processing

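No member log2 fold change reversed under any alternative, and 128 of 147 values moved by less than the spread between arrays. Many of these values could not move. The filters and the replicate block leave a fold change as it was. So does the floor for bright genes, and averaging for genes with 1 probe set. The count also takes in Gsta4, which was within background, so it is no measure of stability. That of Gsta2 ranged from -6.47 with an offset of 1 to -4.05 with signals floored at the bacterial controls, since its knockdown signal was within background. Those of Mgst1, Gstm1 and Mgst3 were -0.42, -0.50 and 0.11 with the mean of all probe sets, which takes in probe sets within background. With the values as deposited or median centring, 5 members were lower without overlap, and with median centring 2 were higher.

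Probe sets called were 9577, and 7942 to 10426 over the alternatives that used all 6 arrays, with 52.9% higher, 32.9% with median centring and 60.0% as deposited. They were 7383 to 10709 when 1 array was left out. With median centring, 1 gene of the peroxidase and redoxin list rose and 0 NRF2 genes rose. With the mean of all probe sets, 8 genes of the peroxidase and redoxin list fell. When 1 array was left out, 7 to 13 of these fell, and 0 to 2 NRF2 genes rose. Leaving out an array leaves fewer samples, and other causes were not tested. Same-letter arrays did not deviate together (correlations of -0.042, -0.017 and -0.010), so the values show no pairing by letter. The labels do not say whether a letter marks a shared litter or day. With a replicate block 8757 probe sets were called. Weak signals limit Gsta4 and most mu-class genes.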

Other observations

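Genes that flank the members and are no transferases also differed between the groups. Within 2 protein-coding genes on each side of a member, 18 such genes were tested, of which 4 rose and 6 fell by limma with Benjamini-Hochberg adjustment, against 18.3% and 17.1% of all genes. The genes named here were chosen after their values were seen. Ddt, a tautomerase related to the cytokine MIF, lies 2 genes from Gstt1, on the side of Gstt3. It read 2332.7, 2253.8 and 2112.9 in wild type and 747.4, 654.4 and 697.7 in knockdown (log2 fold change -1.63 ± 0.08 SE, limma adjusted p 2.15e-07). Gstt3 lies between them and did not pass, at -0.47. Casp2, a caspase gene 2 genes from Gstk1, read 1681.9, 1564.1 and 1563.7 in wild type and 2996.3, 3583.9 and 3822.2 in knockdown (1.13 ± 0.09, limma adjusted p 9.27e-06), while the groups of Gstk1 overlapped. Aldh9a1, an aldehyde dehydrogenase next to Mgst3, fell by 0.53 on the log2 scale (limma adjusted p 0.00192), where Mgst3 was higher.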
